A study of Mus musculus with 12 samples.

Results

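Fibronectin (Fn1) and 9 matricellular genes (Thbs1, Thbs2, Thbs3, Sparc, Spp1, Tnc, Postn, Tgfbi and Smoc1) were read in RNA-seq libraries of primary mouse mesangial cells (MMC). The genes were taken from the files by symbol, from a list made with earlier results of these data known, and the 10 of them were all found among the 25230 genes counted. MMC are contractile cells of the kidney glomerulus, and these were grown out of glomeruli sieved from kidney cortex. The WT cells came from wild-type mice. The KO cells came from homozygous mice of the lncMGC-KO5 line, in which Cas9 injected into C57BL/6J embryos had removed a short stretch by the transcription start of lncMGC, the long non-coding RNA that hosts the miR-379 microRNA cluster. All cells were kept in RPMI medium with 10% fetal bovine serum before the experiment. They were then either left serum-depleted and untreated (SD) or given TGF-β at 10 ng/ml (TGF), with 24 h given for both. The methods do not say whether the TGF cells were also serum-depleted. The groups, with 3 libraries each, were WT-SD and WT-TGF for wild type, and KO-SD and KO-TGF for the line. One KO line was studied and the number of mice behind each genotype is not given, so that the p-values measure only the spread between libraries, which may be technical.

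Fibronectin is a large glycoprotein that cells assemble into fibrils through integrins, and its fibrils serve as a scaffold for collagens and for stored latent TGF-β. Matricellular proteins are secreted into the matrix, where they bind receptors, proteases and growth factors rather than build its structure, and most of them are low in healthy adult tissue and high in wounds and scars. In the glomerulus, TGF-β drives the build-up of mesangial matrix that is a hallmark of diabetic kidney disease. The comparisons ask how TGF-β changes these genes in WT MMC and whether the response or the level differs in MMC of the lncMGC-KO5 line.

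Each library had between 19898050 and 22827706 counts on genes, with a median of 20902725.5. The counted genes do not include lncMGC. Mirg, a gene of the same locus, had 2.14 to 2.69 CPM (counts per 1000000 counts, library sizes scaled by TMM) in WT-SD, 3.45 to 3.75 in WT-TGF, 3.31 to 4.30 in KO-SD and 3.64 to 4.65 in KO-TGF, so that the libraries labelled KO-SD stood above those of WT-SD. Rian, a non-coding RNA of the same imprinted region, had 40.1 to 45.2 CPM in WT-SD and 69.2 to 70.9 in KO-SD, and 72.8 to 79.1 in WT-TGF and 94.3 to 105.2 in KO-TGF. These values run against a lower expression of the locus in KO, the deletion was not checked by them, and KO below means the libraries so labelled. The mesangial marker Pdgfrb had group means between 288 and 384 CPM, while Itga8 was between 0.638 and 3.05 CPM. The podocyte marker Nphs1 did not pass 3 counts in any library. In bulk libraries, fewer cells of a type and less RNA per cell cannot be told apart. The summed level of 8 mesangial and smooth muscle markers was 2526 to 2670 CPM in WT-SD, 5663 to 5829 in WT-TGF, 4867 to 5033 in KO-SD and 10710 to 10795 in KO-TGF. The sum of 8 macrophage markers went from 35.8 to 39.8 CPM in WT-SD to 8.13 to 9.77 in KO-SD, and from 19.1 to 22.9 in WT-TGF to 2.30 to 2.68 in KO-TGF. The sums of podocyte, endothelial and tubular markers were also lower in KO than in WT in both conditions, with 459 to 467 CPM of podocyte markers in WT-SD and 218 to 227 in KO-SD. Not all markers of a list moved alike: Acta2 and Tagln made up most of the mesangial and smooth muscle sum, while Des, of the same list, was lower in KO (7.67 CPM in WT-SD and 0.529 in KO-SD, 5.62 in WT-TGF and 0.247 in KO-TGF). Ehd3 made up most of the endothelial sum (32.6 CPM in WT-SD and 17.1 in KO-SD). Pecam1, Cdh5, Tek and Kdr, at most 0.375 CPM in these groups, were higher in KO-SD than in WT-SD. Lrp2 and Cdh16 made up most of the tubular sum, while Cdh1 and Epcam, at most 0.311 CPM in these groups, were higher in KO-SD. The part of these marker differences in the results below was not tested.

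Levels of different genes were compared per exon length, as RPKM (CPM per kilobase of exon). Fn1, Sparc and Thbs1 were among the most abundant messages of these cells. Fn1 had a mean of 1207 RPKM in WT-SD and 2812 in KO-TGF. Among the 11528 genes tested, its mean RPKM ranked number 3 in WT-SD, 1 in WT-TGF, 1 in KO-SD and 2 in KO-TGF. Sparc had between 1254 and 2452 RPKM and ranked number 2, 2, 2 and 3 in the same order of groups. Thbs1 had between 985 and 1872 RPKM. Tnc (184 to 574 RPKM) and Spp1 (170.0 to 567) formed a middle range, and Postn (12.6 to 40.6), Smoc1 (8.13 to 18.2) and Thbs3 (5.37 to 8.20) a low one.

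Thbs2 and Tgfbi were near the limit of what was tested. A gene was tested if it had over 1 RPKM, on unscaled library sizes, in at least 1 library. Thbs2 passed this limit in 1 KO-SD and 1 KO-TGF library, and Tgfbi in the 3 KO-SD libraries. Neither passed in a WT library, so both had to be high in KO in order to be tested, and neither their own p-values in contrasts that involve KO nor the counts that include them are independent of that. The other 8 genes passed in all 12 libraries.

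**Figure D1:**
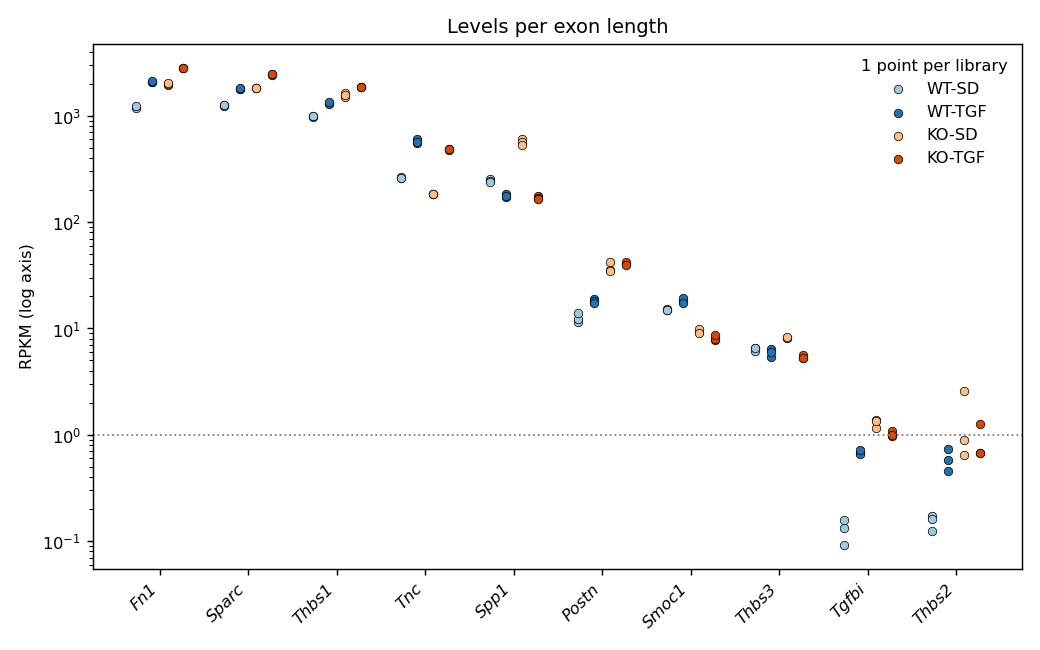
Level per exon length of the 10 genes, as RPKM on a log axis with library sizes scaled by TMM, with 1 point for each of the 12 libraries, colored by group. The dotted line marks 1 RPKM. Fn1, Sparc and Thbs1 lie near or above 1000 RPKM in each group, and Tgfbi and Thbs2 are the lowest, with 1 Thbs2 library of KO-SD at 2.56 RPKM.

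Together the 10 genes took 3.0% ± 0.0157 of all counts on genes in WT-SD (SD, n = 3), 4.33% ± 0.0381 in WT-TGF, 4.41% ± 0.0495 in KO-SD and 5.22% ± 0.0186 in KO-TGF. Fn1 alone took 1.53% to 1.56% in WT-SD and 2.95% to 2.97% in KO-TGF. The libraries of the groups did not overlap in the share of Fn1 between SD and TGF in either genotype. The TMM factors, which multiply the library sizes, were 1.09 to 1.10 in WT-SD, 0.977 to 0.983 in WT-TGF, 1.03 to 1.04 in KO-SD and 0.898 to 0.904 in KO-TGF. Scaling by library size alone therefore gave lower values to the TGF libraries. Over all genes it moved the median log2 fold change by -0.16 for TGF-β in WT and by -0.20 for TGF-β in KO.

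**Figure D2:**
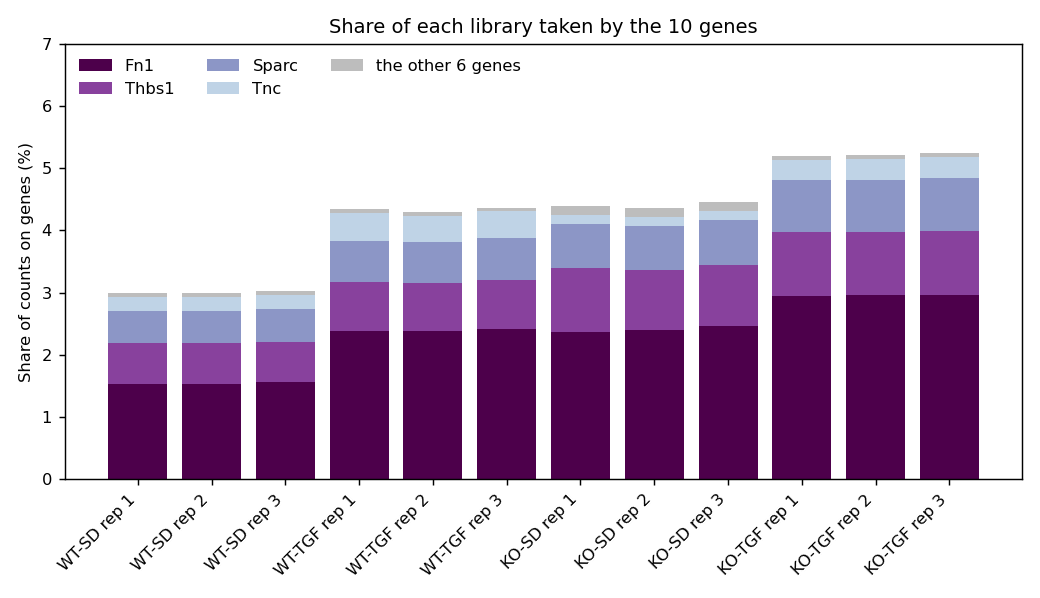
Share of the counts on genes, in percent, taken by Fn1, Thbs1, Sparc, Tnc and the other 6 genes in each of the 12 libraries (stacked bars from 0). The stacks reach about 3.0% in WT-SD and 5.22% in KO-TGF, and Fn1 is the largest part of each.

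A set of 3 genes that went different ways with TGF-β are shown with the sequence before their start, taken from RefSeq (GRCm38.p6, which is mm10). Of the 10 genes, 7 matched an entry of the promoter table. Tnc had the largest rise among the abundant genes, Sparc a smaller one, and Spp1 fell. Each sequence is the 250 bases before the start, 5′ to 3′ on the strand of the gene, at chr4:64047016-64047265 on the minus strand for Tnc, chr11:55420081-55420330 on the minus strand for Sparc and chr5:104434861-104435110 on the plus strand for Spp1. Capitals mark TATAAA, the letters of a TATA box, and CAGAC, the short element that SMAD proteins can bind, both searched on either strand.
Tnc: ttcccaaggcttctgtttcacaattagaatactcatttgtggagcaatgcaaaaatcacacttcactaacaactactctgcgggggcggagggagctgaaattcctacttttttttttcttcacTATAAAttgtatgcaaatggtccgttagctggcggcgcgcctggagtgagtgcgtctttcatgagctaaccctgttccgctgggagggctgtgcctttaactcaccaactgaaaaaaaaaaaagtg
Sparc: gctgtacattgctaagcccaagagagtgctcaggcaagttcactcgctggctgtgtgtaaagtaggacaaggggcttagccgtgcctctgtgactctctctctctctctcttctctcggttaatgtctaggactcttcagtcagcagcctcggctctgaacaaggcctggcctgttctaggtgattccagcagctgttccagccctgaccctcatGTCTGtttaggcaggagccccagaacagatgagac
Spp1: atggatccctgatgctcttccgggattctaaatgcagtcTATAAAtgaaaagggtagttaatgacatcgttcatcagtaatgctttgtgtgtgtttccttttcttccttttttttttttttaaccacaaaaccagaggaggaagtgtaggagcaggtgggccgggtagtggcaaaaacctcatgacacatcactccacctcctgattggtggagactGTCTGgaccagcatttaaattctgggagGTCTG
The Tnc window held TATAAA on the plus strand, 126 to 121 bases before the start, and no CAGAC. The Sparc window held CAGAC once, as GTCTG, 35 to 31 bases before the start. The Spp1 window held it at 33 to 29 and at 5 to 1 bases before the start, both as GTCTG, and TATAAA at 211 to 206 bases. CAGAC was in 5 of the 7 windows and in 42.2% of all 32851 promoters of that length, and TATAAA in 3 of the 7 and in 12.4% of all. The letters TGANTCA (AP-1; in 6.75% of all promoters), GTCTAGAC (the palindromic SMAD box; 0.167%) and TGACGTCA (CRE; 1.55%) were in none of the 7 windows. GGGCGG, the GC box, was in 3 (32.7% of all) and CCAAT in 3 (33.8% of all), and no match in the 3 windows shown overlapped another. A match is a description of the letters and not of a bound site.

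With TGF-β, fibronectin and most matricellular genes rose in WT MMC, and the responses differed in KO. In WT, Fn1, Thbs1, Thbs2, Sparc, Tnc, Postn, Tgfbi and Smoc1 rose and Spp1 and Thbs3 fell at FDR <5% (edgeR's quasi-likelihood test, Benjamini-Hochberg adjustment over the 11528 genes tested). These are 8 higher and 2 lower of the 10, beside 36% of all genes tested called higher and 36.4% called lower. With fold change >2, Tnc, Thbs2 and Tgfbi were higher and none was lower, beside 4.15% and 5.79% of all genes. The 10 genes had a median of 0.52 on the log2 scale, beside -0.00495 over all genes. In KO, Fn1, Thbs1, Sparc, Tnc and Postn rose (5 genes, beside 34.9% of all) and Thbs3, Spp1, Tgfbi and Smoc1 fell (4 genes, beside 39.1% of all), and the median of the 10 was -0.045 against -0.025 for all genes. The calls of Postn and Tgfbi in KO were lost under several alternatives, given with their values below. Only Tnc was higher and only Spp1 lower with fold change >2 in KO, beside 4.38% and 9.16% of all genes.

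The interaction term of the fit tests whether the response differed between the genotypes. At FDR <5%, 9 of the 10 genes had a negative interaction (a log2 fold change with TGF-β that was lower, or more negative, in KO than in WT) and 1, Tnc, a positive one, beside 16.6% and 8.67% of all genes tested. The median interaction was -0.44 on the log2 scale, and -0.031 over all genes. The numbers called over all genes moved with the processing (values below). For 3 genes (Spp1, Thbs2 and Tgfbi) the difference was over 2-fold, beside 2.39% of all genes lower to this degree. Thbs2 and Tgfbi were tested only through their KO libraries, so these counts and the median are not independent of the limit on RPKM. The contrasts of a genotype and of a condition use the same libraries, so their values are set side by side below and no overlap between them is counted as a result.

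**Figure D3:**
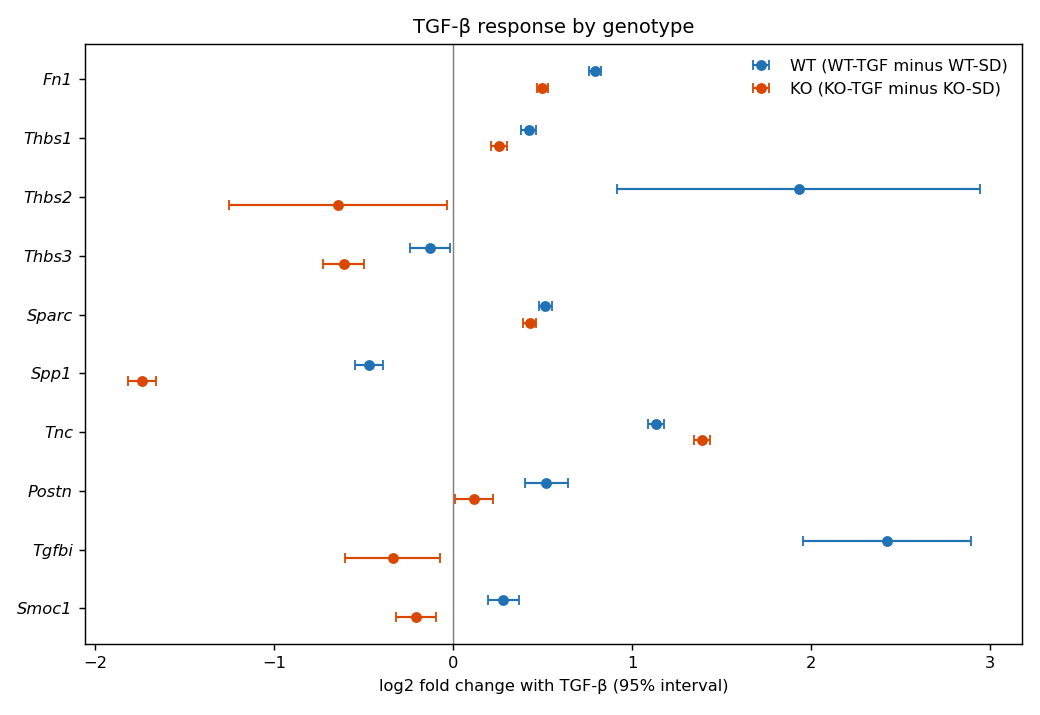
Log2 fold change with TGF-β of each gene in WT (WT-TGF minus WT-SD, blue) and in KO (KO-TGF minus KO-SD, orange), with 95% intervals from edgeR's fit of 12 libraries. Spp1 lies at -0.47 in WT and -1.74 in KO, Tnc at 1.13 and 1.39, and Thbs2, Tgfbi and Smoc1 lie on opposite sides of 0.

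**Figure D4:**
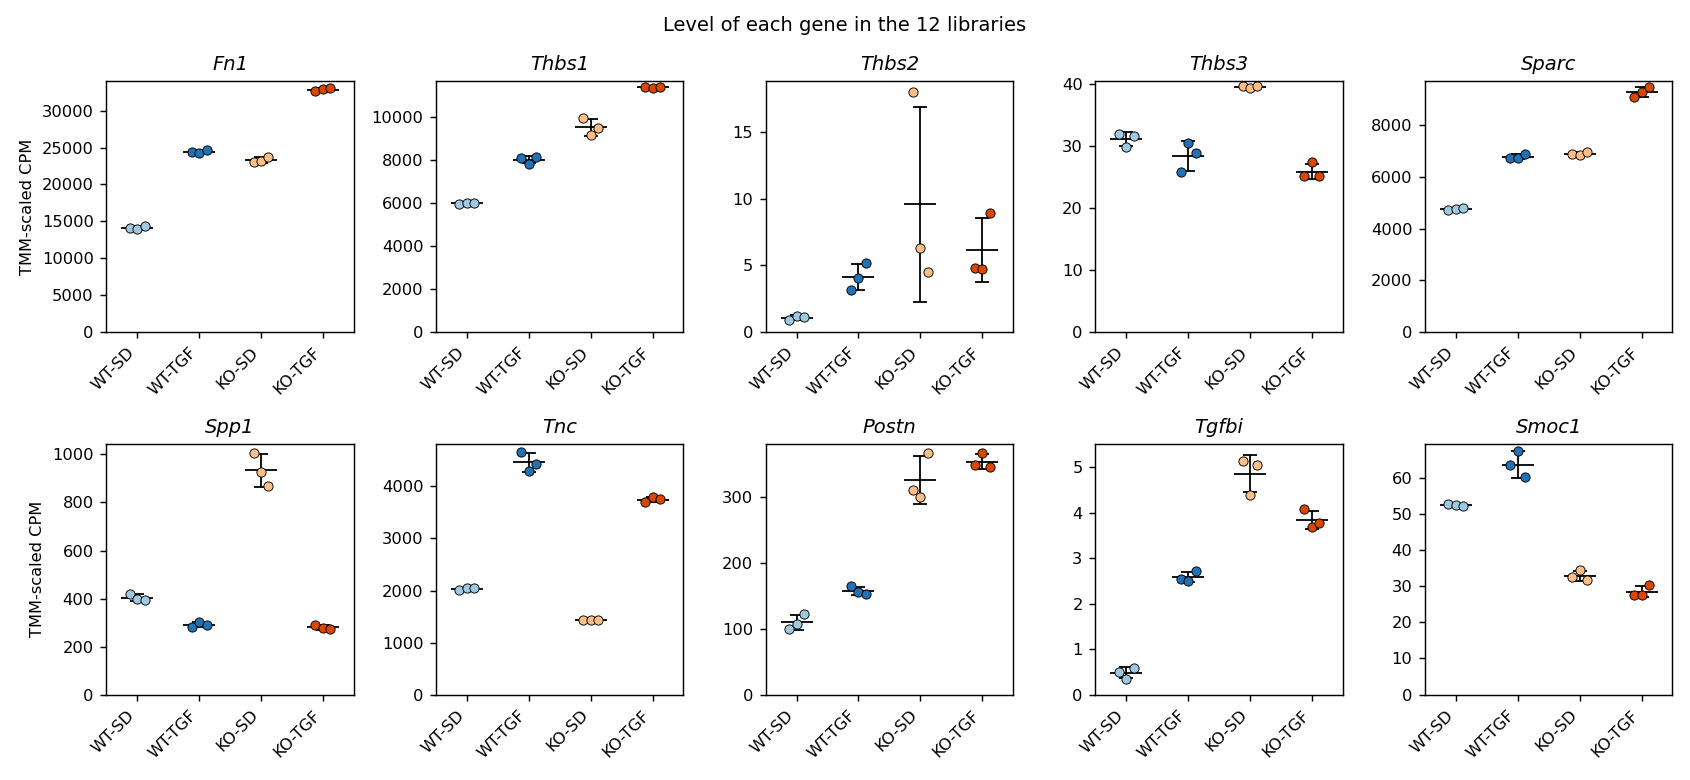
Level of each gene as TMM-scaled CPM on linear axes from 0, 1 point per library (3 per group), with the mean and SD of each group as bars. Fn1, Thbs1 and Sparc are highest in KO-TGF, Spp1 and Thbs3 in KO-SD, and Tnc and Smoc1 in WT-TGF.

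Fn1, the fibronectin gene (NCBI Gene 14268), lies on the minus strand of mm10 at chr1:71585473-71653280. The WT-SD libraries had 14028, 13929 and 14342 CPM, and the WT-TGF libraries 24382, 24264 and 24639. The KO-SD libraries had 22981, 23113 and 23708 CPM, and the KO-TGF libraries 32662, 32876 and 33048. None of the 4 groups overlapped in CPM, and untreated KO cells already stood close to treated WT cells, whose mean was 1.05 times higher. As a share of counts on genes, which TMM does not scale, KO-SD (2.37% to 2.46%) overlapped WT-TGF (2.38% to 2.41%). The mean share was 2.41% in KO-SD and 2.39% in WT-TGF, so the order of these groups turned with the scaling. In WT, Fn1 rose 1.73-fold with TGF-β (0.79 on the log2 scale, standard error 0.0159, adjusted p = 1.26e-27), and in KO it rose 1.41-fold (0.50, standard error 0.0158, adjusted p = 1.44e-22). The response was smaller in KO on the log2 scale (interaction -0.29, adjusted p = 8.40e-12), while on the CPM scale WT gained 10328 and KO 9595, a difference that was not tested on that scale. Fn1 was higher in KO by 0.72 on the log2 scale in SD and by 0.43 in TGF (adjusted p = 4.54e-26 and 2.38e-20, edgeR's quasi-likelihood test). The exons of Fn1 share 292 bases with Apol7d, which is antisense to it, and the authors' counting used strand.

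The thrombospondins are secreted glycoproteins that bind CD47, CD36 and integrins, and thrombospondin 1 can release active TGF-β from its latent complex. Thbs1 was by far the most abundant of the 3 and made up 99.3% to 99.7% of their summed RPKM in every library. Thbs1 (NCBI Gene 21825, chr2:118111876-118127133, plus strand) had 5932, 6015 and 5993 CPM in WT-SD and 8099.7, 7809 and 8115 CPM in WT-TGF. It had 9935, 9137 and 9481 CPM in KO-SD and 11390, 11353 and 11364 CPM in KO-TGF. Both KO groups stood above both WT groups, without overlap between any of the 4 in CPM. As a share of counts on genes, which TMM does not scale, KO-SD (0.951% to 1.025%) overlapped KO-TGF (1.020% to 1.030%). Thbs1 rose with TGF-β by 0.42 on the log2 scale in WT (standard error 0.0215, adjusted p = 3.14e-17) and by 0.26 in KO (standard error 0.0214, adjusted p = 4.28e-12), and the interaction was -0.16 (adjusted p = 9.26e-05). Against WT it was 1.59-fold higher in KO in SD and 1.42-fold higher in TGF (adjusted p = 6.47e-22 and 7.47e-19).

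Thbs2 (NCBI Gene 21826, chr17:14665500-14694262, minus strand), a related thrombospondin that restrains the growth of vessels, was scarce. It had 19, 28 and 25 counts in the WT-SD libraries and 67, 91 and 104 in WT-TGF. In KO-SD it had 391, 130 and 98 counts and in KO-TGF 89, 88 and 170. One KO-SD library thus stood far above its group, with 17.96 CPM beside 6.27 and 4.49 CPM. Thbs2 rose with TGF-β in WT by 1.93 on the log2 scale (standard error 0.495, adjusted p = 0.000948), without overlap. In KO the change was -0.64 (95% interval -1.25 to -0.04, adjusted p = 0.0521), and without that KO-SD library (replicate 1) it was 0.20 (adjusted p = 0.347). The value in KO passed FDR <5% with library size alone (adjusted p = 0.00942) and when replicate 2 (0.00825) or 3 (0.000737) of KO-SD or 3 of KO-TGF (0.0111) was left out. The interaction was -2.57 (adjusted p = 0.000988) and -1.73 without this library. Thbs2 was higher in KO-SD than in WT-SD by 3.15 (adjusted p = 1.14e-07) and by 2.31 without it. Thbs2 entered the test only through 1 KO-SD and 1 KO-TGF library, and the fits with a library left out kept the same genes. Its p-values in contrasts that involve KO are therefore not independent of the limit on RPKM. Between KO-TGF and WT-TGF the libraries overlapped (0.58, 95% interval -0.14 to 1.30, adjusted p = 0.164), and the same difference passed FDR <5% when the KO-SD library was left out of the shared fit (adjusted p = 0.00493) and in a fit of these groups only (0.00396).

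Thbs3 (NCBI Gene 21827, chr3:89215180-89226841, plus strand), a thrombospondin of the branch that forms pentamers, had 31.9, 29.8 and 31.6 CPM in WT-SD and 25.8, 30.6 and 28.9 CPM in WT-TGF. It had 39.6, 39.3 and 39.7 CPM in KO-SD and 25.2, 27.4 and 25.2 CPM in KO-TGF. KO-SD stood above the other groups, where each overlapped the next in level. Thbs3 fell with TGF-β in KO by 0.61 on the log2 scale (standard error 0.0556, adjusted p = 3.01e-11). In WT its log2 fold change was -0.13 (standard error 0.0552, adjusted p = 0.0375), a call lost with DESeq2 (adjusted p = 0.0595), with no filter (0.126), with a filter on CPM (0.0741) and without WT-SD replicate 1 (0.120), WT-SD replicate 3 (0.0966) or WT-TGF replicate 1 (0.348). The interaction was -0.48 (adjusted p = 1.74e-05). In SD it was higher in KO by 0.35 (adjusted p = 1.32e-06), and in TGF the difference of -0.14 did not pass the test (95% interval -0.26 to -0.02, adjusted p = 0.0514). That difference passed with scaling by library size alone (-0.26, adjusted p = 0.000383), in a fit of these groups only (adjusted p = 0.0490) and when replicate 2 of WT-SD, 1 of WT-TGF, 1 of KO-SD or 2 of KO-TGF was left out, with adjusted p between 0.00416 and 0.0496. Thbs3 shares 318 exon bases with Mtx1 on the other strand.

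Sparc encodes osteonectin, a calcium-binding matricellular protein that binds collagen and affects its assembly. Sparc (NCBI Gene 20692, chr11:55394159-55420080, minus strand) had 4700.2, 4769 and 4779.95 CPM in WT-SD, and 6736, 6735 and 6894 in WT-TGF. In KO-SD it had 6877, 6859 and 6979 CPM, and in KO-TGF 9103, 9295 and 9468. Untreated KO cells overlapped treated WT cells in CPM, and the lowest and highest groups were WT-SD and KO-TGF. As a share of counts on genes, which TMM does not scale, KO-SD (0.710% to 0.725%) stood above WT-TGF (0.658% to 0.675%) without overlap. The log2 fold change with TGF-β was 0.52 in WT and 0.43 in KO (standard errors 0.0181 and 0.0180, adjusted p = 2.04e-21 and 2.01e-19). Their difference of -0.087 had an adjusted p = 0.0104 in edgeR, and it did not pass with DESeq2 (-0.060, adjusted p = 0.137) or when any one of the KO-TGF libraries 1, 2 and 3 was left out (adjusted p = 0.420, 0.266 and 0.0990). On the CPM scale WT gained 2039 and KO 2384, so the direction of this difference turned with the scale. Over all genes, leaving out KO-TGF replicate 1, 2 or 3 moved the interaction by a median of 0.040, 0.039 and 0.038. The part of this shift in the value of Sparc was not tested. Sparc was 1.45-fold higher in KO in SD and 1.37-fold higher in TGF (adjusted p = 1.96e-21 and 1.55e-19).

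Smoc1, a member of the SPARC family that sits in basement membranes and modulates BMP signaling, went the other way in KO. It lies on the plus strand at chr12:81026808-81186414 (NCBI Gene 64075), 28.5 Mb from Mirg on the same chromosome. Smoc1 had 52.7, 52.5 and 52.1 CPM in WT-SD and 63.4, 67.4 and 60.1 CPM in WT-TGF. In KO-SD it had 32.5, 34.4 and 31.7 CPM and in KO-TGF 27.4, 27.6 and 30.2 CPM. Each KO library was below each WT library, and no groups overlapped. TGF-β raised Smoc1 in WT (0.28 on the log2 scale, standard error 0.0429, adjusted p = 1.01e-06) and lowered it in KO (-0.21, standard error 0.0539, adjusted p = 0.000980). The interaction was -0.49 (adjusted p = 1.80e-06). Smoc1 was 1.60-fold lower in KO in SD and 2.24-fold lower in TGF (log2 fold changes -0.67 and -1.16, adjusted p = 1.81e-13 and 5.50e-19).

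Tnc encodes tenascin C, a hexameric matricellular protein that interferes with the adhesion of cells to fibronectin. Tnc (NCBI Gene 21923, chr4:63959785-64047015, minus strand) had 2015, 2045 and 2044 CPM in WT-SD, and 4659, 4292 and 4432 in WT-TGF. It had 1429, 1436 and 1426 CPM in KO-SD, and 3698, 3792 and 3749.96 in KO-TGF. Both TGF groups stood above both SD groups, and within each condition KO stood below WT. Tnc rose 2.19-fold with TGF-β in WT and 2.62-fold in KO (1.13 and 1.39 on the log2 scale, standard errors 0.0225 and 0.0228, adjusted p = 1.08e-27 and 6.79e-30). It was the one gene of the 10 with a positive interaction (0.26, adjusted p = 1.64e-07), although on the CPM scale WT gained 2426 and KO 2316. In KO, Tnc was 1.42-fold lower in SD and 1.19-fold lower in TGF (adjusted p = 2.17e-18 and 3.68e-11).

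Postn and Tgfbi encode periostin and the TGF-β-induced protein, a pair of related secreted proteins with fasciclin-like domains that bind integrins and collagens. Postn (NCBI Gene 50706, chr3:54359267-54391041, plus strand) had 100.4, 107 and 123 CPM in WT-SD, and 164, 156 and 152 in WT-TGF. In KO-SD it had 310.03, 299 and 367 CPM, and in KO-TGF 349, 366 and 345. All KO libraries stood above all WT libraries, and the KO-SD and KO-TGF libraries overlapped. Postn rose with TGF-β in WT by 0.52 on the log2 scale (standard error 0.0584, adjusted p = 3.08e-09). In KO the change was 0.12 (95% interval 0.01 to 0.22, adjusted p = 0.0422). This call was lost with DESeq2 (adjusted p = 0.184) and without replicate 1 (0.113) or 2 (0.284) of KO-SD or 2 of KO-TGF (0.0988), and with library size alone the value was -0.086 (adjusted p = 0.120). The interaction was -0.40 (adjusted p = 0.000191). Postn was 2.96-fold higher in KO in SD and 2.24-fold higher in TGF (adjusted p = 1.08e-20 and 9.62e-18).

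Tgfbi (NCBI Gene 21810, chr13:56609586-56639359, plus strand), named for its induction by TGF-β in other cells, was barely expressed in untreated WT MMC. It had 11, 8 and 13 counts in WT-SD and 54, 56 and 55 in WT-TGF. In KO-SD it had 112, 91 and 110 counts, and in KO-TGF 76, 69 and 72. The 4 groups did not overlap in CPM, with the highest levels in untreated KO cells. Tgfbi rose 5.36-fold with TGF-β in WT (log2 fold change 2.42, standard error 0.230, adjusted p = 9.07e-11). In KO it fell with TGF-β by 0.34 on the log2 scale (standard error 0.131, adjusted p = 0.0214), a call that was lost with DESeq2 (adjusted p = 0.112) and when replicate 1 or 3 of KO-SD or replicate 2 or 3 of KO-TGF was left out (adjusted p between 0.0627 and 0.0851). The interaction was -2.76 (adjusted p = 1.63e-09). Tgfbi was 10.1-fold higher in KO in SD and 1.49-fold higher in TGF (adjusted p = 3.79e-15 and 0.00167), in a test it entered only through its KO-SD libraries.

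Spp1 encodes osteopontin, a phosphorylated protein that binds integrins and CD44 and that injured kidney cells and macrophages secrete. Spp1 (NCBI Gene 20750, chr5:104435111-104441053, plus strand) had 419, 399.8 and 394 CPM in WT-SD, and 282, 304 and 288 in WT-TGF. It had 1008, 926 and 870.3 CPM in KO-SD, and 290.4, 276 and 274 in KO-TGF. KO-SD stood far above the other groups, and the TGF libraries of both genotypes overlapped at the lowest level. Spp1 was 2.31-fold higher in KO than in WT in SD (1.21 on the log2 scale, standard error 0.0365, adjusted p = 1.50e-22). With TGF-β it fell 1.39-fold in WT and 3.34-fold in KO (log2 fold changes -0.47 and -1.74, adjusted p = 1.75e-12 and 6.93e-27), and the interaction was -1.27 (adjusted p = 6.63e-18). Between KO-TGF and WT-TGF the difference was -0.06 (95% interval -0.14 to 0.02, adjusted p = 0.200). It passed FDR <5% with library size alone (-0.18, adjusted p = 0.000142) and in a fit of these groups only (adjusted p = 0.0456). The 8 macrophage markers summed to less in KO-SD, where Spp1 was highest, than in WT-SD (values above). In KO-SD, 4 of the 8 did not pass 3 counts, Adgre1 had no count, Lyz2 had a mean of 0.374 CPM, and Cd14 made up most of the sum with 6.75 CPM (10.9 in WT-SD). The part of macrophages in the level of Spp1 was not tested.

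Between the genotypes in SD, 8 of the 10 genes were higher in KO at FDR <5% and 2 (Tnc and Smoc1) were lower, beside 30.9% and 25.2% of all genes tested. Spp1 and Postn were over 2-fold higher, beside 3.2% of all genes, and so were Thbs2 and Tgfbi, which were tested only through their KO libraries. The median log2 difference was 0.70, and 0.019 over all genes. In TGF, Fn1, Thbs1, Sparc, Postn and Tgfbi were higher in KO (5 genes, beside 27.2% of all), Tnc and Smoc1 were lower (2 genes, beside 27.8%), and Thbs2, Thbs3 and Spp1 did not pass the test. Postn was over 2-fold higher and Smoc1 over 2-fold lower in TGF, beside 1.38% and 4.68% of all genes. The median was 0.44, and -0.00355 over all genes. Thbs2 and Tgfbi are among the 10 genes in both conditions, so these counts and medians are not independent of the limit on RPKM. The summed mesangial and smooth muscle markers, mostly Acta2 and Tagln, were also higher in KO in both conditions. Of the same list, Des and Myh11 were lower in KO in both, and Pdgfrb and Itga8 were lower in TGF. The part of these markers in the differences was not tested.

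**Figure D5:**
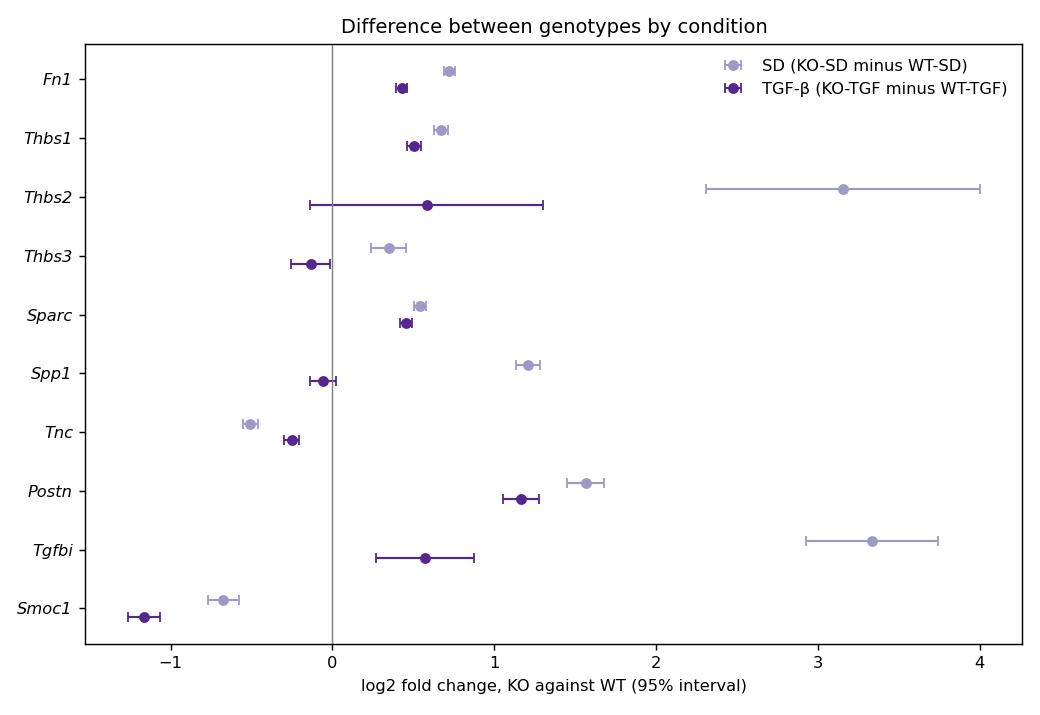
Log2 difference between KO and WT of each gene in SD (light) and in TGF (dark), with 95% intervals from edgeR's fit of 12 libraries. Tnc and Smoc1 lie below 0 in both conditions, Fn1, Thbs1, Sparc, Postn and Tgfbi above 0 in both, and Spp1 lies at 1.21 in SD and -0.06 in TGF.

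Of 12 other matricellular genes, the files held all, and Smoc2 and Fstl1 passed the filter on RPKM. Smoc2, the closest relative of Smoc1, had means of 52.4 CPM in WT-SD, 112 in WT-TGF, 83.1 in KO-SD and 211 in KO-TGF. It rose with TGF-β by 1.10 on the log2 scale in WT and 1.35 in KO, and it was higher in KO by 0.66 in SD and 0.91 in TGF, where Smoc1 was lower (adjusted p of at most 3.78e-15 by edgeR's quasi-likelihood test). The interaction was 0.25 for Smoc2 (adjusted p = 0.000477), and -0.49 for Smoc1. Fstl1, a follistatin-like protein with a SPARC-type domain, rose with TGF-β by 0.88 in WT and 0.77 in KO, and was higher in KO by 0.36 in SD and 0.25 in TGF.

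The receptors of fibronectin and the matricellular proteins were read as a list of 18 integrin, syndecan and other genes, 13 of which were tested. With TGF-β, 9 rose and 2 fell in WT (beside 36% and 36.4% of all genes tested), and 10 rose and 3 fell in KO (beside 34.9% and 39.1%). Itga5, the α chain of the main fibronectin receptor, had means of 172 CPM in WT-SD, 1193 in WT-TGF, 236 in KO-SD and 1994 in KO-TGF. Its log2 fold change with TGF-β was 2.79 in WT and 3.08 in KO, larger than that of Fn1, and the interaction was 0.29 (adjusted p = 9.32e-07) while that of Fn1 was -0.29. Itgb3, the β chain of a receptor of fibronectin and osteopontin, rose by 2.05 and 2.01. Itgb8, part of an integrin that activates latent TGF-β, fell by 0.98 and 1.45, and Sdc4, a syndecan that binds fibronectin with integrins, fell by 0.42 and 0.71. Between genotypes, 7 receptors were higher and 3 lower in KO in SD (beside 30.9% and 25.2% of all genes), and 7 were higher and 4 lower in TGF (beside 27.2% and 27.8%). Sdc2 was higher in KO by 0.55 in SD and 0.43 in TGF, and Sdc4 (-0.64 and -0.94) and Itgb5 (-0.39 and -0.46) were lower. The interaction was positive for 2 receptors and negative for 5 (beside 8.67% and 16.6% of all genes), among them Cd47 at 0.15 and Itgb8 at -0.47. The 13 receptors had a median log2 fold change of 0.46 with TGF-β in WT, 0.34 with TGF-β in KO, 0.15 for KO in SD and 0.075 for KO in TGF.

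Of 10 genes whose products bind, cross-link or anchor fibronectin fibrils, all were tested, and 7 rose and 2 fell with TGF-β in WT (36% and 36.4% of all genes did), and 8 rose and 2 fell in KO (34.9% and 39.1% of all). Fbn1, the microfibril gene fibrillin 1, rose on the log2 scale by 1.49 in WT and 1.46 in KO, and Fbln2, a fibulin, by 1.54 and 1.13. Tgm2, the transglutaminase that cross-links fibronectin, had means of 104 CPM in WT-SD, 104 in WT-TGF, 106 in KO-SD and 225 in KO-TGF. Its interaction of 1.09 (adjusted p = 5.86e-18) was the largest of the list. Fbln1 was higher in KO-SD than in WT-SD by 1.52 and fell with TGF-β in KO by 1.81, and Ltbp1, which holds latent TGF-β on fibronectin, was higher in KO by 1.19 in SD and 0.91 in TGF. In all, 7 partners were higher and 1 lower in KO in SD (30.9% and 25.2% of all genes were), and 4 had a positive and 4 a negative interaction (8.67% and 16.6% of all). In TGF, 9 were higher in KO (27.2% of all genes were), and the one other, Tns1, chosen after its value was seen, had a log2 difference of -0.040 (adjusted p = 0.116). The 10 partners had a median log2 fold change of 0.61 with TGF-β in WT, 0.80 with TGF-β in KO, 0.43 for KO in SD and 0.42 for KO in TGF. Ccn2, a known target of TGF-β read as a check of the treatment, rose by 2.36 in WT and 2.25 in KO.

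Genes whose pattern over the 12 libraries was nearest to that of a member were found by the root mean square difference of log2 CPM, centred on each gene's mean, among 10506 genes with at least 5 CPM in a group. Rian (0.0582), described above, Nkain1 (0.0630) and Fblim1 (0.0683) were nearest to Fn1. Wls (0.0384) was nearest to Thbs1, Msrb3 (0.0360) and Tgfbr2 (0.0407), a TGF-β receptor, to Sparc, and Junb (0.0808), a subunit of AP-1, to Tnc. For Thbs3 the nearest gene was Mpzl1 (0.0697), for Smoc1 Ly6e (0.0762), and for Spp1 Ism1 (0.127) and the cell division gene Arhgap11a (0.128). Postn was nearest to Col8a1 (0.175), a chain of type VIII collagen. No gene came as near to Thbs2, whose nearest was Tmeff2 (0.523), and Tgfbi was under the limit of 5 CPM.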

How the data were processed

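TopHat (mm10) and strand-specific HTSeq-count, run by the authors, gave the number of single-end reads on each RefSeq gene. The deposited values are these counts, 1 whole number per gene and library, not normalized. Reads on no gene (10.3% to 15.4%), with several alignments (11.2% to 11.7%) or on overlapping genes (0.225% to 0.274%) were left out. The share on no gene differed by group, with 15.2% to 15.4% in WT-SD and 12.2% to 12.5% in WT-TGF. It was 12.7% to 13.4% in KO-SD and 10.3% to 10.9% in KO-TGF, and its part in the results was not tested. Reads shared by near-identical genes are not in the counts.

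Libraries were grouped by the sample labels. CPM and RPKM were computed from the counts, with exon lengths from GENCODE vM21 (24407 genes matched by symbol, 302 by an older symbol, 521 not at all). The 11528 genes with RPKM >1 in at least 1 library, as in the study's methods, were tested in edgeR 4.0.16 (R 4.3.3) in 1 fit of 12 libraries with TMM, by the quasi-likelihood test with p-values adjusted after Benjamini-Hochberg, which was checked on simulated data. The biological coefficient of variation was 0.0268. Coordinates are those of RefSeq. All 10 members are named; of the other lists, per contrast, the 2 largest positive and 2 largest negative log2 fold changes at FDR <5% and at least 5 CPM. Results for some genes of these lists are not reported here. The members and lists were chosen with earlier results of these data known. Alternatives were library size alone, DESeq2 1.42.0, each library left out, no filter, CPM >1 in 3 or more libraries as the filter, a replicate block, and a fit of only the groups compared. Intervals cover the spread between libraries, and with 3 libraries a group the precision is limited by their number. Figures were drawn with matplotlib 3.10.9.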

Additional observations from a re-analysis of the deposited data

Results flagged for a closer look

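For each of the 10 genes the TGF-β response differed between the genotypes by the test of the difference itself (edgeR's quasi-likelihood test of the interaction, Benjamini-Hochberg adjustment over all genes tested), which 16.6% of all genes did in the lower and 8.67% in the higher direction. The response in KO minus that in WT was, on the log2 scale, -0.29 for Fn1, -0.16 for Thbs1, -2.57 for Thbs2 and -0.48 for Thbs3. It was -0.087 for Sparc and -0.49 for Smoc1, and 0.26 for Tnc. For Postn it was -0.40, for Tgfbi -2.76 and for Spp1 -1.27. The difference of Sparc was lost with DESeq2 (adjusted p = 0.137) and when KO-TGF replicate 1, 2 or 3 was left out (0.420, 0.266 and 0.0990), and on the CPM scale Sparc gained more in KO (2384) than in WT (2039). Thbs2 and Tgfbi were tested only through their KO libraries, and the value of Thbs2 was -1.73 without KO-SD replicate 1. Over the alternatives that gave one, the interaction of Spp1 ranged from -1.32 to -1.21 and that of Tnc from 0.21 to 0.31, and both passed FDR <5% in each.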

How the results depend on the processing

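Of 890 values of the 10 genes under 18 alternatives, 851 kept their direction and their side of FDR <5%, 19 were no longer called and 18 became called. A pair changed sign: Postn with TGF-β in KO was -0.086 with library size alone, and Thbs2 with TGF-β in KO was 0.20 without KO-SD replicate 1 (-1.0005 to 0.20 over the libraries left out). The number of the 10 genes lower with TGF-β in WT was 1 with DESeq2, with no filter and with the filter on CPM, and 1 to 2 over the libraries left out. The number lower in KO under TGF-β was 4 with library size alone and 4 with only the groups compared. The causes were not tested. With library size alone, over all genes 2642 were called higher and 6055 lower with TGF-β in WT, 2298 and 6715 with TGF-β in KO, 2444 and 4192 for KO in SD, 1643 and 5407 for KO in TGF, and 686 and 2647 for the interaction. The interaction had 1000 higher and 1914 lower in the main fit, 1019 and 1334 with DESeq2, and 892 and 2328 with no filter. Without KO-TGF replicate 1, 2 or 3 it had 1325 and 1419, 1248 and 1407, and 1249 and 1378. With any other library left out, 882 to 1123 were higher and 1752 to 2035 lower. Same-numbered libraries were little correlated: of 18 correlations, from -0.03 to 0.13, 1 was over 0.1. They were not compared with differently numbered libraries, so these values cannot decide whether the numbers pair the libraries weakly. With the replicate number as a block, Thbs2 with TGF-β in KO (-0.60, adjusted p = 0.0245, edgeR) and Thbs3 for KO in TGF (-0.14, adjusted p = 0.0448) became called, and no other call of the 10 genes changed. With no filter, edgeR gave all genes of a level the same spread (an infinite prior), and its p-values are not printed for single genes called there. Low counts limit Thbs2 and Tgfbi.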
